A study of Mus musculus with 12 samples.

Results

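Stathmins, collapsin response mediators and the neuronal beta-tubulins were examined as 10 genes chosen by name from the 24318 gene rows of the expression tables: Stmn1, Stmn2, Stmn3 and Stmn4, Crmp1, Dpysl2, Dpysl3 and Dpysl5, and Tubb2b and Tubb3. All 10 were present in both tables and all passed the filter on low values. They were measured in N2a cells, an established mouse neuroblastoma line that grows neurites when it differentiates, in 3 groups of 4 libraries. The first received SE-BDEVs, extracellular vesicles from brain whose SE is read from the series title as status epilepticus (seizure activity that does not stop by itself), the next received CON-BDEVs, and the last received Vehicle. The labels do not spell out CON and give no vesicle dose, treatment time or donor animals. Separate cultures or vesicle preparations for the 4 libraries are not stated either, so p-values measure the spread between these libraries, which may be technical. The genes were listed with earlier results of these data known, among them a fall of Crmp1 with CON-BDEVs, so their fold changes describe these libraries and are not independent evidence.

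Stathmins bind pairs of tubulin dimers, which keeps tubulin out of the microtubule and favours its disassembly, and phosphorylation releases the tubulin. Stmn1 is cytosolic and found in many dividing cells, whereas Stmn2, Stmn3 and Stmn4 are neuronal and attach to membranes through a lipid-modified amino terminus. Collapsin response mediator proteins, encoded by Crmp1 and the Dpysl genes, carry the signal of semaphorins in growth cones and bind tubulin dimers. Tubb3 and Tubb2b encode beta-tubulins that are abundant in developing neurons.

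Expression is given in FPKM, fragments scaled to transcript length and library size, which is a level per length. SE-BDEV libraries held an estimated 13000000 to 15700000 fragments, CON-BDEV libraries 12900000 to 14500000 and Vehicle libraries 15200000 to 16700000, so that 7 of the 8 BDEV libraries were shallower than every Vehicle library. The 8 tested markers of the sympathetic lineage of these cells averaged at least 1 FPKM. Summed, they reached 422 to 448 FPKM in SE-BDEV, 430 to 461 FPKM in CON-BDEV and 373 to 397 FPKM in Vehicle. Neurod6 of forebrain neurons and Cldn5 of endothelium were listed at 0 in every library. The astrocyte list summed to 0.744 to 1.09 FPKM in SE-BDEV, 0.689 to 0.902 FPKM in CON-BDEV and 1.04 to 1.25 FPKM in Vehicle. The library names number all Vehicle libraries after the BDEV libraries, among which SE-BDEV and CON-BDEV alternate. Whether that numbering follows handling is not stated, and an effect of such an order could not be told apart from that of vesicles against Vehicle. The part of depth or of the shift in lineage markers in the differences described here was not tested. In bulk libraries fewer cells that express a gene and less RNA of it per cell cannot be told apart.

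Most of these genes were slightly less abundant in cells given either kind of vesicle than in cells given Vehicle. Stmn2, Stmn3, Crmp1, Dpysl2 and Tubb2b were lower in all 8 BDEV libraries than in any Vehicle library, by means of 6.8 to 17.4% for SE-BDEV and 6.9 to 17.3% for CON-BDEV. Stmn1, Dpysl3, Dpysl5 and Tubb3 lay within 4.8% of the Vehicle mean in either group, and Stmn4 was low in level and variable. In limma, at a Benjamini-Hochberg adjusted p under 0.05 over the whole table, 4 of the 10 fell with CON-BDEVs, namely Crmp1, Stmn2, Tubb2b and Dpysl2, and 0 rose. Of all 11320 genes tested, 2.84% passed in that comparison, 1.82% lower and 1.02% higher. With SE-BDEVs 0 of the 10 passed in limma, where 0.919% of 11311 genes did, 0.628% lower and 0.292% higher. The authors' deposited table calls 1 of the 10, Tubb2b, in each comparison. It calls 140 of 11928 genes with SE-BDEVs and 215 of 11912 with CON-BDEVs. Crmp1, Stmn2 and Dpysl2 are not called there with CON-BDEVs (q = 0.0948, 0.0803 and 0.209). In limma, at an unadjusted p under 0.05, 6 of the 10 were lower with SE-BDEVs and 7 with CON-BDEVs. Over all genes tested in limma the shares lower were 6.89% and 9.56% (14.8% and 19.1% in either direction). Of all genes tested, 4.39% lay below every Vehicle library in all 4 SE-BDEV libraries and 6.23% in all 4 CON-BDEV libraries. Both comparisons share the 4 Vehicle libraries, so each is given by its own values.

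**Figure D1:**
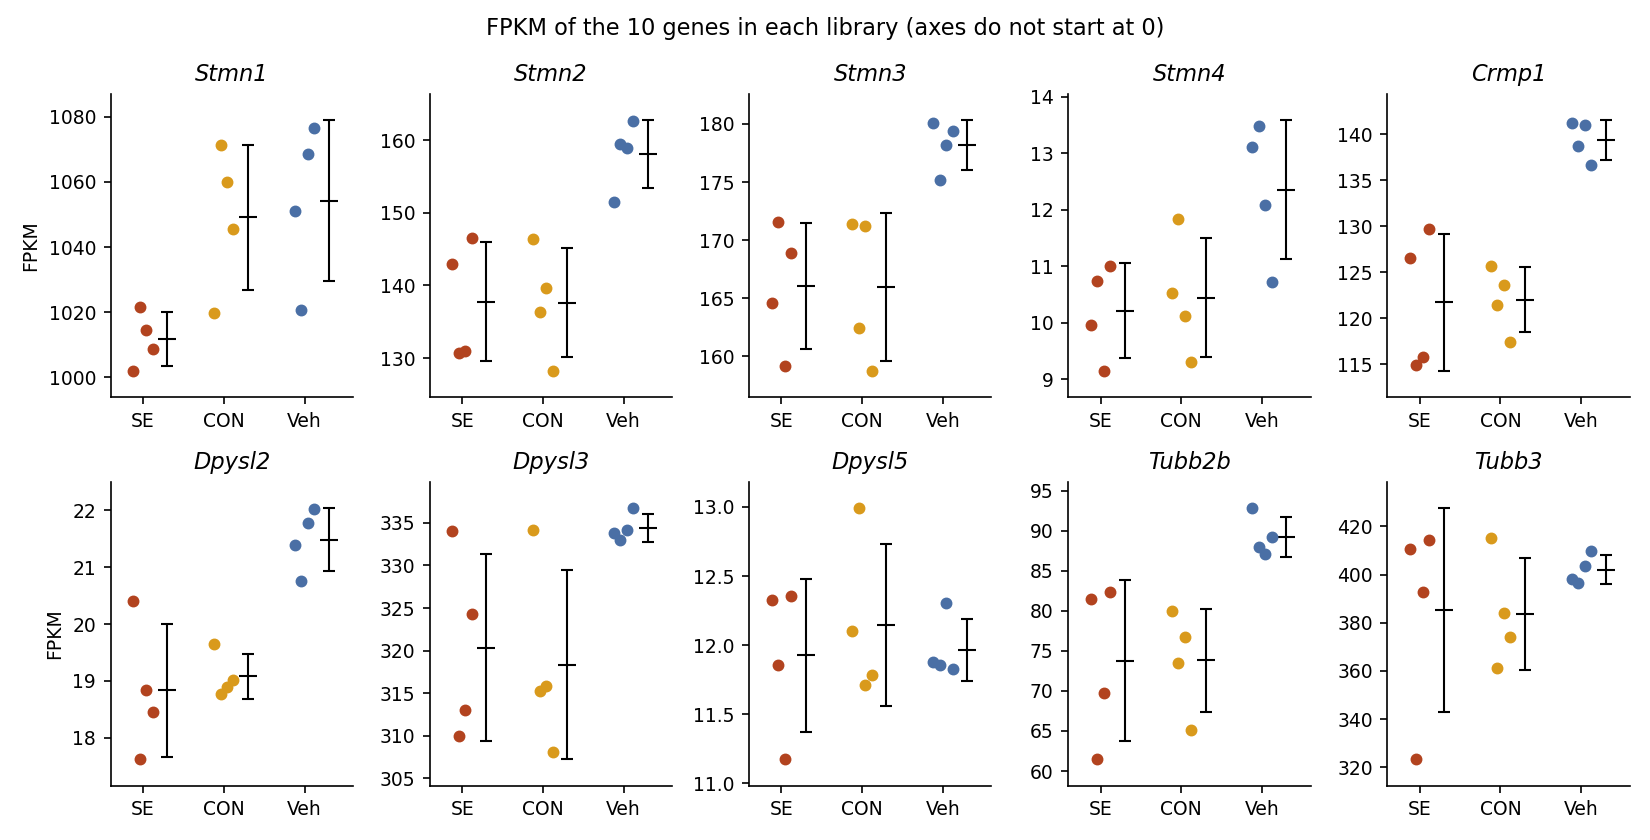
FPKM (vertical axis, starting above 0) of each of the 10 genes in the 4 SE-BDEV (SE), 4 CON-BDEV (CON) and 4 Vehicle (Veh) libraries; points are libraries, and the bar beside them is the mean with its SD. Stmn2, Stmn3, Crmp1, Dpysl2 and Tubb2b show a gap between all 8 BDEV libraries and the 4 Vehicle libraries, whereas Dpysl5 and Tubb3 overlap.

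Among the stathmins, Stmn1 made up most of the family's RNA and hardly differed, while the neuronal Stmn2 and Stmn3 were lower. Stmn1 (chromosome 4, 134024234 to 134029758 on mm9, as all positions of genes here) ranked 72 of the 11302 genes above 1 FPKM in Vehicle. It had 1002, 1022, 1015 and 1009 FPKM in SE-BDEV, 1019.6, 1071, 1059.9 and 1046 FPKM in CON-BDEV, and 1051, 1021, 1069 and 1077 FPKM in Vehicle. The CON-BDEV and Vehicle libraries overlapped, and 3 of the 4 SE-BDEV libraries lay just below the lowest Vehicle library. The log2 fold change was −0.06 ± 0.03 for SE-BDEV (± standard error, as for all fold changes here; adjusted p = 0.355 in limma) and −0.01 ± 0.03 for CON-BDEV (0.907 in limma).

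Stmn2 (chromosome 3, 8509526 to 8561604) encodes the stathmin of growth cones and growing axons. It had 143, 131, 131 and 147 FPKM in SE-BDEV, 146, 136, 139.6 and 128 FPKM in CON-BDEV, and 151, 159, 159 and 163 FPKM in Vehicle. All 8 BDEV libraries were below all Vehicle libraries, with the nearest pair 147 against 151 FPKM. The log2 fold change was −0.20 ± 0.04 for SE-BDEV (limma adjusted p = 0.0646), which did not pass, and −0.20 ± 0.04 for CON-BDEV (limma adjusted p = 0.0257). The SE-BDEV value passed without SE-BDEV replicate 4 (adjusted p = 0.0386) and in no other alternative fit (limma adjusted p up to 0.204). With CON-BDEVs it no longer passed without CON-BDEV replicate 3 or 4 (adjusted p = 0.0540 and 0.0543) and without Vehicle replicate 2, 3 or 4 (0.0776, 0.0780 and 0.0777). Nor did Stmn2 pass there with no filter, no trend, a replicate block or all 12 libraries (limma adjusted p = 0.0674, 0.0700, 0.0959 and 0.0586).

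Stmn3 (chromosome 2, 181041163 to 181049205), a stathmin of neuronal Golgi and vesicle membranes, had 165, 172, 159 and 169 FPKM in SE-BDEV, 171, 162, 171 and 159 FPKM in CON-BDEV, and 180.1, 175, 178 and 179 FPKM in Vehicle. The groups did not overlap, but the gap was small: the highest BDEV library stood at 172 and the lowest Vehicle library at 175 FPKM. Its log2 fold change was −0.10 in each comparison (limma adjusted p = 0.171 for SE-BDEV and 0.0970 for CON-BDEV). It passed for CON-BDEV only without CON-BDEV replicate 1 (adjusted p = 0.0498).

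Stmn4 (chromosome 14, 66963211 to 66980517) was the least abundant stathmin, at 0.770% of the family's summed FPKM with SE-BDEVs, 0.766% with CON-BDEVs and 0.882% with Vehicle. It had 9.96, 10.7, 9.15 and 11.01 FPKM in SE-BDEV, 10.5, 11.8, 10.1 and 9.31 FPKM in CON-BDEV, and 13.1, 13.5, 12.1 and 10.7 FPKM in Vehicle. Vehicle replicate 4 lay within the range of both BDEV groups. The log2 fold changes, −0.25 ± 0.08 for SE-BDEV and −0.22 ± 0.08 for CON-BDEV, were among the largest of the 10 and did not pass (limma adjusted p = 0.167 and 0.154). The summed FPKM of the 4 stathmins ranged over 1314 to 1335 with SE-BDEVs, 1342 to 1382 with CON-BDEVs and 1369 to 1429 with Vehicle, and Stmn1 contributed 76.3% of it with SE-BDEVs, 77.0% with CON-BDEVs and 75.1% with Vehicle.

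The collapsin response mediators split in the same way, with Crmp1 and Dpysl2 lower and Dpysl3 and Dpysl5 close to Vehicle. Crmp1 (chromosome 5, 37633296 to 37683402), whose product takes part in semaphorin-driven growth cone collapse, had 126, 115, 116 and 129.7 FPKM in SE-BDEV, 126, 121, 124 and 117 FPKM in CON-BDEV, and 141, 139, 141 and 137 FPKM in Vehicle. No BDEV library came nearer to the Vehicle range than 129.7 FPKM. The log2 fold change was −0.20 ± 0.04 for SE-BDEV (limma adjusted p = 0.0612) and −0.19 ± 0.03 for CON-BDEV (limma adjusted p = 0.00569). The CON-BDEV fall passed without any 1 of the 8 libraries (adjusted p = 0.00365 to 0.0277). For SE-BDEV the gene passed without SE-BDEV replicate 2 or 4 (0.0490 and 0.0307), with median scaling (adjusted p = 0.04995) and in a fit of all 12 libraries (0.0259).

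The RefSeq promoter table (build GRCm38.p6) held 5 start sites for 4 of the 10 genes, and the 150 bases before each are shown because they allow genes that were lower in every BDEV library, Crmp1 and Stmn3, to be read beside genes that were not, Dpysl5 and Tubb3. Capitals mark the GC box, GGGCGG on either strand, the binding letters of the general activator SP1; overlapping matches are run together.
Crmp1, upstream start (chr5:37241908-37242057, plus strand): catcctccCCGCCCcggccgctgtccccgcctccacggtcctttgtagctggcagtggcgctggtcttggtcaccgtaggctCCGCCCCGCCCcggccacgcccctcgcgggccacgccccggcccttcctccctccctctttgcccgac
Crmp1, downstream start (chr5:37245614-37245763, plus strand): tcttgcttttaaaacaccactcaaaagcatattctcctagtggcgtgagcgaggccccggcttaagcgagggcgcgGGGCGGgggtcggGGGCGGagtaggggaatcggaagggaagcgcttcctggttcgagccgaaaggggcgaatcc
Stmn3 (chr2:181314501-181314650, minus strand): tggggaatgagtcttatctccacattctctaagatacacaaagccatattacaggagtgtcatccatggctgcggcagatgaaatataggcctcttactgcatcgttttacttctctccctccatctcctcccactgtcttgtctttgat
Dpysl5 (chr5:30711414-30711563, plus strand): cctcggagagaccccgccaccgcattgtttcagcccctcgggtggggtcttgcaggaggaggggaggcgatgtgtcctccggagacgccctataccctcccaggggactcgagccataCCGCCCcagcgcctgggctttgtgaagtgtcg
Tubb3 (chr8:123411403-123411552, plus strand): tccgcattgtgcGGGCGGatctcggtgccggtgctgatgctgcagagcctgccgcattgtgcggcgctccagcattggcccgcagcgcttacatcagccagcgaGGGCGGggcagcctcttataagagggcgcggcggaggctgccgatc
The GC box matched 3 and 2 times before the upstream and the downstream Crmp1 start, 2 times before Tubb3, 1 time before Dpysl5 and 0 times before Stmn3, and 28.6% of 32851 promoters in the table held it in the same window. GC content was 75.3% and 61.3% for the Crmp1 windows, 44.7% for Stmn3, 66.7% for Dpysl5 and 68.0% for Tubb3, against a median of 54.0% over the table. The motif CCAAT matched once in the Tubb3 window and in 24.5% of promoters. The letters TCACNCCAC, a sterol response element as in the LDL receptor promoter, matched once in the window of the downstream Crmp1 start and in 0.639% of promoters. All motifs were searched on both strands. The letters TATAAA of the TATA box were found in 0 of the 5 windows and in 7.57% of promoters. An E box, spelled CACGTG, was found in 0 of the 5 windows and in 4.30% of promoters. The core of the neuron-restrictive silencer element was found in 0 of the 5 windows and in 0.0244% of promoters. The matches of the other motifs in these windows overlapped a GC box in 0 cases. The deposited values do not separate the starts of Crmp1, and a match describes letters only.

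Dpysl2 (chromosome 14, 67421700 to 67487437) encodes the mediator best known for binding tubulin dimers and promoting axon growth. It had 20.4, 17.6, 18.8 and 18.5 FPKM in SE-BDEV, 19.6, 18.8, 18.9 and 19.0 FPKM in CON-BDEV, and 21.4, 20.8, 21.8 and 22.02 FPKM in Vehicle. The groups did not overlap, and SE-BDEV replicate 1 came closest to the Vehicle range. The log2 fold change was −0.18 ± 0.05 for SE-BDEV (limma adjusted p = 0.112) and −0.16 ± 0.03 for CON-BDEV (limma adjusted p = 0.0294). With CON-BDEVs it no longer passed without CON-BDEV replicate 3 or 4 (adjusted p = 0.0764 and 0.0820) and without Vehicle replicate 1, 3 or 4 (0.0867, 0.0967 and 0.0880).

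Dpysl3 (chromosome 18, 43480632 to 43597940), a mediator that also binds actin, was the most abundant of the 4. It had 334, 310.0, 313 and 324 FPKM in SE-BDEV, 334, 315, 316 and 308 FPKM in CON-BDEV, and 334, 333, 334 and 337 FPKM in Vehicle. Replicate 1 of each BDEV group sat inside the narrow Vehicle range and the other 6 BDEV libraries below it. The log2 fold change was −0.06 ± 0.03 for SE-BDEV and −0.07 ± 0.03 for CON-BDEV (limma adjusted p = 0.379 and 0.188). It passed for CON-BDEV only without CON-BDEV replicate 1 (adjusted p = 0.0371). Dpysl5 (chromosome 5, 31014267 to 31101742) had 12.3, 11.9, 11.2 and 12.4 FPKM in SE-BDEV, 12.1, 13.0, 11.7 and 11.8 FPKM in CON-BDEV, and 11.9, 11.9, 12.3 and 11.8 FPKM in Vehicle. All 3 groups overlapped, with log2 fold changes of −0.00 for SE-BDEV and 0.02 for CON-BDEV (limma adjusted p = 0.973 and 0.836). The remaining gene of this family, Dpysl4, had means of 0.0481 FPKM (SE-BDEV), 0.0136 FPKM (CON-BDEV) and 0.0177 FPKM (Vehicle), under the filter.

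Of the neuronal beta-tubulins, Tubb2b was, with Stmn4, the most reduced of the 10 genes in the mean and Tubb3 differed little in the mean. Tubb2b (chromosome 13, 34218876 to 34222223), a beta-tubulin of migrating and newly formed neurons, had 81.5, 61.5, 69.8 and 82.4 FPKM in SE-BDEV, 80.0, 73.4, 76.8 and 65.1 FPKM in CON-BDEV, and 92.8, 88.0, 87.1 and 89.2 FPKM in Vehicle. All BDEV libraries lay below Vehicle, with SE-BDEV replicate 2 and CON-BDEV replicate 4 the lowest. The mean was 17.4% lower in SE-BDEV (log2 fold change −0.28 ± 0.08; limma adjusted p = 0.147) and 17.3% lower in CON-BDEV (−0.27 ± 0.05; limma adjusted p = 0.0257). The CON-BDEV call was lost without Vehicle replicate 1, 2, 3 or 4 (adjusted p = 0.0891, 0.0646, 0.0631 and 0.0677). It was also lost with no filter, no trend or all 12 libraries (limma adjusted p = 0.0771, 0.0643 and 0.131).

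Tubb3 (chromosome 8, 125935463 to 125945910), the neuron-specific beta-tubulin used as a marker of neuronal differentiation, had 410.5, 323, 393 and 414 FPKM in SE-BDEV, 415, 361, 384 and 374 FPKM in CON-BDEV, and 398, 396, 404 and 409.7 FPKM in Vehicle. The highest libraries of each BDEV group exceeded the Vehicle range while others were below it, so that the SD was 42.3 FPKM in SE-BDEV, 23.1 FPKM in CON-BDEV and 6.02 FPKM in Vehicle. The log2 fold change was −0.07 in each comparison (limma adjusted p = 0.682 for SE-BDEV and 0.358 for CON-BDEV). It turned to 0.01 for SE-BDEV without SE-BDEV replicate 2, and it passed for CON-BDEV only without CON-BDEV replicate 1 (−0.11, adjusted p = 0.0492).

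Tubb2b has a near copy in Tubb2a, and the pair cannot be fully separated by short reads. In GENCODE M21 the coding sequences of Tubb2b and Tubb2a, each 1338 bases, were 96.5% identical, with 47 differing bases. The last 90 coding bases, which end with the stop codon and encode the carboxy-terminal tail where tubulin isotypes usually differ most, are shown with the 3 differing bases in capitals (build GRCm38).
Tubb2b (chr13:34127471-34127560, minus strand): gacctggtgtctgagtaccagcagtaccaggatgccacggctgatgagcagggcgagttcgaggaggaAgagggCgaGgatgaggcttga
Tubb2a (chr13:34074468-34074557, minus strand): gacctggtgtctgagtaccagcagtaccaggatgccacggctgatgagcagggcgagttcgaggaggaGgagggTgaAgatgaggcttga
Of the 50-base stretches of the Tubb2b transcript, 39.3% also occurred in transcripts of other genes. Tubb2a held 33.4%, whether or not a further gene held them too. Tubb2a had 83.7 ± 8.46 FPKM in SE-BDEV, 81.9 ± 6.09 FPKM in CON-BDEV and 92.6 ± 1.06 FPKM in Vehicle (SD, n = 4 each), with log2 fold changes of −0.15 and −0.18 that did not pass (limma adjusted p = 0.290 and 0.0642). The sources used here do not say how the authors' counting divided shared reads, and the split between Tubb2b and Tubb2a is uncertain. For Stmn1, 36.5% of 50-base stretches were shared, chiefly with the pseudogene Gm11223, and its value carries the same doubt. The other 8 genes shared 0 such stretches with another gene. Stmn1, Dpysl5 and Tubb3 overlap other annotations on their own strand in GENCODE M21. Crmp1 overlaps Evc, which lies on the opposite strand and reached at most 0.0313 FPKM in SE-BDEV, 0 FPKM in CON-BDEV and 0.0146 FPKM in Vehicle.

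Differences between the 2 vesicle sources were small for every one of the 10 genes. In a limma fit of all 12 libraries, 0 of 11312 genes passed for SE-BDEV against CON-BDEV (0%), with 296 (2.62%) at an unadjusted p under 0.05, of which 0 were among the 10. The log2 differences of the 10 ran from −0.05 for Stmn1 to 0.01 for Dpysl3. Stmn1 averaged 1012 ± 8.39 FPKM in SE-BDEV and 1049 ± 22.3 FPKM in CON-BDEV (SD, n = 4 each), and the 95% confidence interval of its log2 difference was −0.11 to 0.00 (unadjusted p = 0.0664, limma adjusted p = 1.00). The interval was −0.09 to 0.08 for Crmp1, −0.10 to 0.10 for Stmn2, −0.07 to 0.07 for Stmn3 and −0.11 to 0.07 for Dpysl2. It was widest for Tubb2b (−0.18 to 0.17) and Stmn4 (−0.20 to 0.14). The fold changes of both genes from Vehicle lay outside it, for Stmn4 narrowly, but these carry errors of their own. For Dpysl3 (−0.06 to 0.08), Dpysl5 (−0.12 to 0.07), Tubb3 (−0.14 to 0.14) and Stmn1 the interval held differences as large as theirs from Vehicle. A p above the threshold does not show that both sources act alike.

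**Figure D2:**
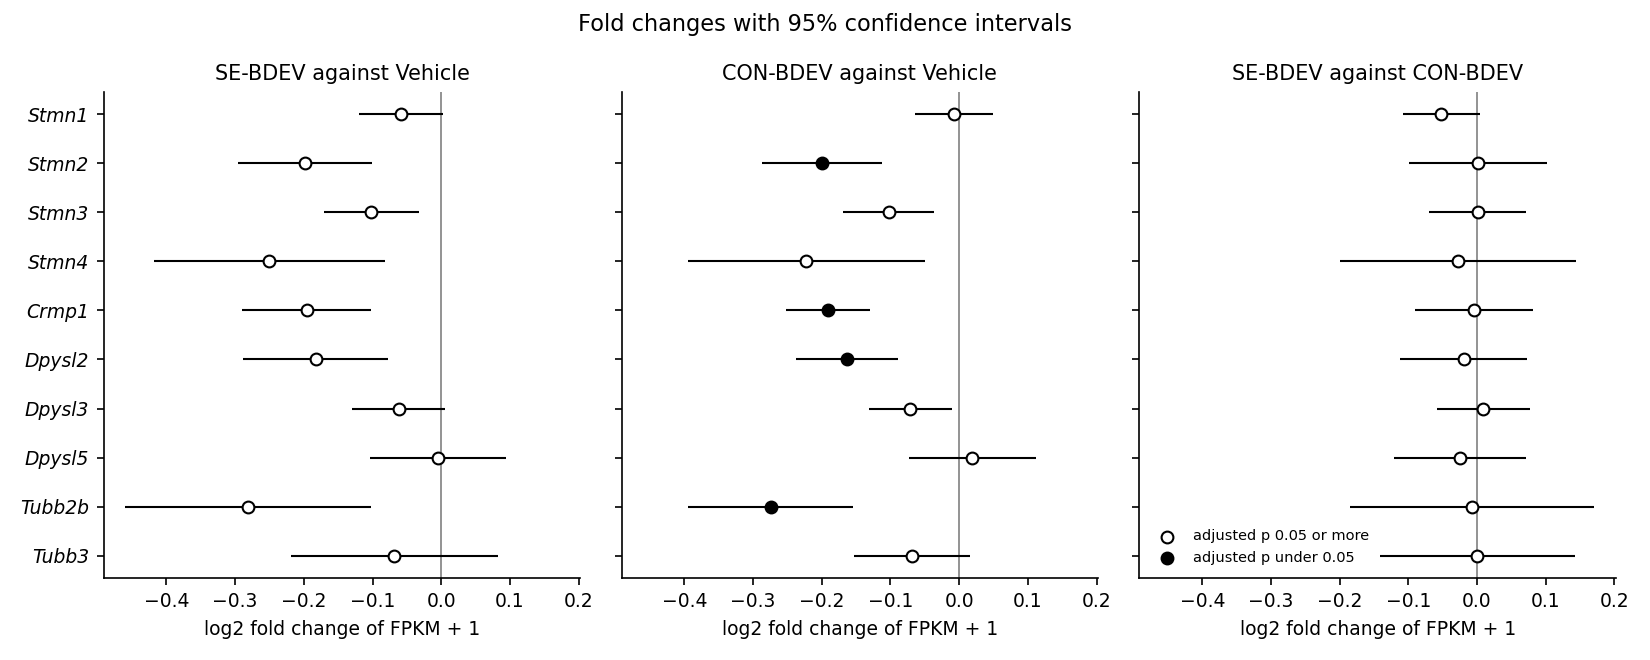
Log2 fold change of FPKM + 1 (horizontal axis) of the 10 genes in the 3 comparisons, with 95% confidence intervals as lines; filled points passed in limma at an adjusted p under 0.05. Crmp1, Dpysl2, Stmn2 and Tubb2b are filled for CON-BDEV against Vehicle, and the points for SE-BDEV against CON-BDEV lie between −0.05 and 0.01.

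Ratios within a library set Tubb2b, Crmp1 and Stmn2 against the most abundant gene of their family among the 10. These ratios were chosen after the values were seen and are given without a test. Tubb2b to Tubb3 was 0.198, 0.190, 0.178 and 0.199 in SE-BDEV, 0.193, 0.203, 0.1999 and 0.174 in CON-BDEV, and 0.233, 0.222, 0.216 and 0.218 in Vehicle. Crmp1 to Dpysl3 was 0.379, 0.371, 0.370 and 0.400 in SE-BDEV, 0.376, 0.385, 0.391 and 0.381 in CON-BDEV, and 0.423, 0.417, 0.422 and 0.406 in Vehicle. Neither ratio overlapped between the BDEV libraries and Vehicle. Set against Dpysl5, the relative nearest to its Vehicle level, Crmp1 gave ratios of 9.70 to 10.5 in SE-BDEV, 9.34 to 10.6 in CON-BDEV and 11.5 to 11.9 in Vehicle, again without overlap. Stmn2 to Stmn1 was 0.143, 0.128, 0.129 and 0.145 in SE-BDEV, 0.144, 0.127, 0.132 and 0.123 in CON-BDEV, and 0.144, 0.156, 0.149 and 0.151 in Vehicle. Here SE-BDEV replicate 4 and Vehicle replicate 1 overlapped. A ratio of FPKM shows unequal change and not that either gene stayed constant.

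**Figure D3:**
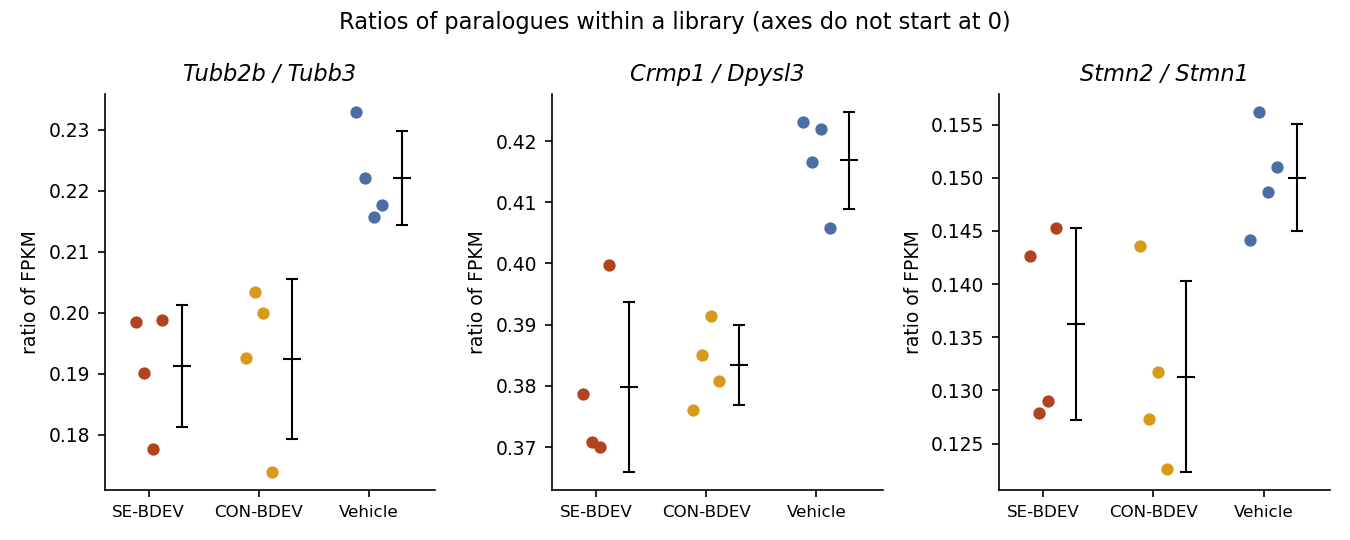
Ratio of FPKM within each library (vertical axis, starting above 0) for Tubb2b to Tubb3, Crmp1 to Dpysl3 and Stmn2 to Stmn1, by group; points are libraries, and the bar is the mean with its SD. All 8 BDEV libraries are below 0.204 for Tubb2b to Tubb3 and all Vehicle libraries above 0.215.

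Within each of the 3 groups the low and high values were often in the same libraries. SE-BDEV replicate 2 was the lowest of its group for 6 of the 10 genes and CON-BDEV replicate 4 for 6. SE-BDEV replicate 4 was the highest for 6 and CON-BDEV replicate 1 for 7. In Vehicle, replicate 2 was the lowest for 5 and replicate 4 the highest for 5. Such counts were not made over all genes. The median log2 difference of the 10 genes from their Vehicle means was −0.09, −0.23, −0.17 and −0.09 in SE-BDEV replicates 1 to 4 and −0.08, −0.14, −0.13 and −0.17 in CON-BDEV replicates 1 to 4. Over all genes tested the same median was at most 0.02 from 0 in these 8 libraries. The coefficient of variation of Tubb2b was 13.6% over the SE-BDEV libraries, 8.68% over CON-BDEV and 2.79% over Vehicle, and that of Crmp1 was 6.12% over SE-BDEV, 2.93% over CON-BDEV and 1.56% over Vehicle.

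In order of level per length, Stmn1 led in every group, followed in Vehicle by Tubb3 (402 ± 6.02 FPKM), Dpysl3 (334 ± 1.62), Stmn3 (178 ± 2.15), Stmn2 (158 ± 4.70), Crmp1 (139 ± 2.17), Tubb2b (89.3 ± 2.49), Dpysl2 (21.5 ± 0.554), Stmn4 (12.4 ± 1.24) and Dpysl5 (11.97 ± 0.227; SD, n = 4 each). Stmn4 and Dpysl5 did not differ beyond their spread in Vehicle, and in SE-BDEV the lowest Tubb3 library (323 FPKM) lay within the range of Dpysl3. The order was the same in CON-BDEV and SE-BDEV down to Dpysl2. Dpysl5 stood above Stmn4 there, at 11.9 ± 0.552 against 10.2 ± 0.838 FPKM in SE-BDEV and 12.1 ± 0.586 against 10.4 ± 1.05 FPKM in CON-BDEV.

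Lists of the wider microtubule and growth cone machinery are given by their counts, beside 0.919% of all genes tested that passed with SE-BDEVs and 2.84% with CON-BDEVs. At an unadjusted p under 0.05, in either direction, 14.8% of all genes tested stood with SE-BDEVs and 19.1% with CON-BDEVs. Of 13 other tubulins tested, 0 passed with SE-BDEVs in limma (4 at an unadjusted p under 0.05), and 1, Tubb5, fell with CON-BDEVs (median log2 fold change of the list −0.00 for SE-BDEV and −0.11 for CON-BDEV, against 0.01 and 0.00 over all genes). Tubb5, the most abundant beta-tubulin, had 768 ± 60.6 FPKM in SE-BDEV, 768 ± 29.5 FPKM in CON-BDEV and 841 ± 7.30 FPKM in Vehicle (SD, n = 4 each). Its log2 fold change for CON-BDEV was −0.13 (limma adjusted p = 0.0368), and the call held without CON-BDEV replicate 1 and was lost without each of the other 7 libraries (adjusted p = 0.0542 to 0.110). The alpha-tubulin gene Tuba1a, chosen after its values were seen, had 585 ± 46.5 FPKM in SE-BDEV, 579 ± 70.6 FPKM in CON-BDEV and 701 ± 28.8 FPKM in Vehicle (SD, n = 4 each; limma adjusted p = 0.0549 and 0.0674). All 8 BDEV libraries lay below Vehicle, the highest BDEV value being 654 and the lowest Vehicle value 675 FPKM. Of the 13 other tubulins, 4 lay wholly below Vehicle with SE-BDEVs and 5 with CON-BDEVs, beside 4.39% and 6.23% of all genes tested. The alpha-tubulin gene Tuba1b, also chosen after its values were seen, hardly differed. It averaged 537 FPKM in SE-BDEV, 525 FPKM in CON-BDEV and 532 FPKM in Vehicle (limma adjusted p = 0.956 and 0.849).

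Of 19 genes of tubulin folding and tyrosination, 0 passed in either comparison in limma, with 0 at an unadjusted p under 0.05 for SE-BDEV and 2 for CON-BDEV. Among 12 microtubule-associated proteins 0 passed with SE-BDEVs in limma (3 at an unadjusted p under 0.05) and 1 fell with CON-BDEVs. This was Map1a, with 24.6 ± 2.90 FPKM in SE-BDEV, 23.8 ± 1.20 FPKM in CON-BDEV and 27.0 ± 0.537 FPKM in Vehicle (SD, n = 4 each). Its limma adjusted p for CON-BDEV was 0.0397 (0.417 for SE-BDEV), and without CON-BDEV replicate 2, 3 or 4 or any 1 Vehicle library it was 0.0564 to 0.115. The axonal Map1b (413 ± 4.93 FPKM in SE-BDEV, 399 ± 16.8 FPKM in CON-BDEV and 411 ± 10.9 FPKM in Vehicle) and the tau gene Mapt (62.7 ± 3.35, 63.6 ± 1.78 and 64.4 ± 1.54 FPKM in the same groups; SD, n = 4 each) did not pass. Both were chosen after their values were seen. Of 19 tip and severing proteins, 0 passed with SE-BDEVs in limma (4 at an unadjusted p under 0.05) and the severing subunit gene Katna1 rose with CON-BDEVs (log2 fold change 0.15 ± 0.03; limma adjusted p = 0.0219; 0.0584 to 0.0708 without CON-BDEV replicate 4 or Vehicle replicate 1, 2, 3 or 4). Of 16 growth cone membrane and actin proteins, among them Gap43, 0 passed in either comparison in limma, with 3 at an unadjusted p under 0.05 for SE-BDEV and 2 for CON-BDEV.

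The list of semaphorin and collapsin response mediator signalling had 21 tested genes. It includes semaphorins, their receptors and kinases, and also Rnd1 and the Mical genes. Of its semaphorins only Sema3f passed the filter. With SE-BDEVs 1 gene of the list rose and 0 fell, and with CON-BDEVs 2 rose and 1 fell. At an unadjusted p under 0.05 in limma, 7 stood with SE-BDEVs and 8 with CON-BDEVs. The semaphorin receptor Plxnd1 rose in both, to 9.54 ± 0.675 FPKM in SE-BDEV and 9.03 ± 0.612 FPKM in CON-BDEV against 6.78 ± 0.638 FPKM in Vehicle (SD, n = 4 each; limma adjusted p = 0.0178 and 0.0158). The SE-BDEV call of Plxnd1 was lost without SE-BDEV replicate 3 or Vehicle replicate 1, 2 or 3 (0.0529 to 0.0799), and the CON-BDEV call without CON-BDEV replicate 4 or Vehicle replicate 1 or 3 (0.0529 to 0.0575). The co-receptor Nrp1 rose with CON-BDEVs (log2 fold change 0.23, limma adjusted p = 0.0266) and Mical1, an oxidase that severs actin filaments, fell (−0.23, limma adjusted p = 0.0219). Both calls held without CON-BDEV replicate 1 or 2 and were lost without each other library (adjusted p = 0.0509 to 0.0834).

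Among 6 intermediate filament genes, Prph, which encodes the peripherin of peripheral neurons, fell in both comparisons. It had 714 ± 36.9 FPKM in SE-BDEV, 721 ± 16.9 FPKM in CON-BDEV and 839 ± 13.9 FPKM in Vehicle (SD, n = 4 each), with log2 fold changes of −0.23 and −0.22 (limma adjusted p = 0.0206 and 0.00126). The CON-BDEV call held with each of the 8 libraries left out (adjusted p = 0.00173 to 0.00857). The SE-BDEV call was lost without SE-BDEV replicate 1 or Vehicle replicate 1, 2, 3 or 4 (0.0663 to 0.0912). It was also lost with no filter, a replicate block or no trend (limma adjusted p = 0.0878, 0.0613 and 0.0594). The other 5 genes of this list, the neurofilament genes Nefl and Nefh among them, did not pass.

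**Figure D4:**
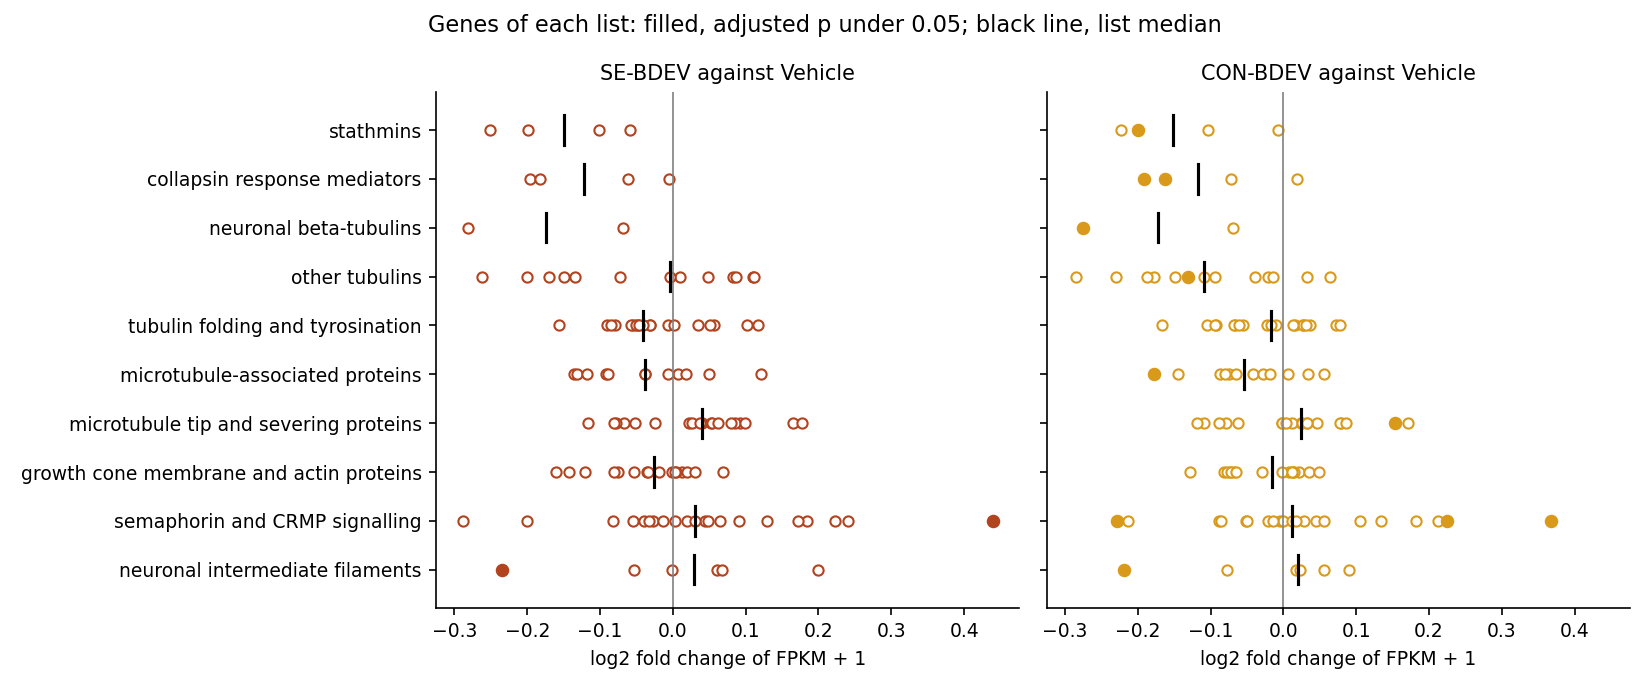
Log2 fold change of FPKM + 1 (horizontal axis) of every tested gene of the 10 described genes' families and of the related lists, for SE-BDEV against Vehicle and CON-BDEV against Vehicle; filled points passed in limma at an adjusted p under 0.05 and black lines are list medians. The lineage markers are not drawn. Below the 3 families examined here, list medians run from −0.11 (other tubulins with CON-BDEVs) to 0.04 (tip and severing proteins with SE-BDEVs).

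Among the 8 tested lineage markers, genes of sympathetic neurons rose. With SE-BDEVs 2 rose, Dbh and Ddc, and with CON-BDEVs 5 rose, Phox2a, Dbh, Gata3, Hand2 and Ddc, and 0 fell in either. The transcription factor gene Phox2a had 89.8 ± 4.24 FPKM in SE-BDEV, 95.1 ± 4.19 FPKM in CON-BDEV and 79.7 ± 3.01 FPKM in Vehicle (SD, n = 4 each), and Hand2 had 177 ± 9.08, 187 ± 6.30 and 158 ± 9.08 FPKM in the same groups. For CON-BDEV, Phox2a, Dbh, Gata3 and Hand2 passed in limma with each of the 8 libraries left out (adjusted p = 0.00366 to 0.0480). Ddc was lost there without CON-BDEV replicate 4 or Vehicle replicate 2 or 3 (0.0563 to 0.0607). For SE-BDEV, Dbh was lost without Vehicle replicate 1, 2, 3 or 4 (0.0563 to 0.0764), and Ddc held without SE-BDEV replicate 2 (0.0423) and was lost without each other library (0.0839 to 0.145).

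The 5 genes whose centred log2 profile over the 12 libraries was nearest to that of Crmp1, of 6989 with means from 10 FPKM up, were Glud1, Me1, Tmsb4x, Acly and Msn, with root mean square differences of 0.030 to 0.032 on the log2 scale. Glud1 encodes glutamate dehydrogenase, Me1 malic enzyme, Tmsb4x the actin-sequestering thymosin, Acly ATP citrate lyase and Msn the actin linker moesin. Glud1, the nearest, averaged 41.5 ± 2.63 FPKM in SE-BDEV, 41.2 ± 2.29 FPKM in CON-BDEV and 48.2 ± 0.575 FPKM in Vehicle (SD, n = 4 each). Of the other 9 genes examined here, Stmn2 was the nearest to Crmp1, at rank 12 with a difference of 0.037, and Dpysl2 followed at rank 70 with 0.053. Dpysl5, at rank 2051 with 0.106, was the farthest.

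The authors' deposited table of their own test gave Tubb2b as the 1 significant gene of the 10 in each comparison, with a log2 fold change of −0.27 for SE-BDEV (q = 0.0172) and −0.27 for CON-BDEV (q = 0.00505). Over all genes tested there, the authors' deposited table marks 140 of 11928 as significant for SE-BDEV and 215 of 11912 for CON-BDEV. Stmn2, Stmn4, Crmp1 and Dpysl2 had unadjusted p-values under 0.05 in both comparisons of the authors' deposited table, with q-values from 0.0803 for Stmn2 with CON-BDEVs to 0.314 for Stmn4 with SE-BDEVs.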

How the data were processed

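RNA sequencing of polyadenylated RNA from 12 N2a libraries was analysed, with a kit that keeps the strand, per the labels' protocols. The authors deposited FPKM values per gene and library. TopHat2, Cuffdiff and mm9 are named, without their roles, per the submitters' processing notes; the sources used here do not give versions, annotation, filters or the strand setting. The authors' deposited comparison tables hold, per the file headers, group values in FPKM, log2 fold changes, a test statistic (a score, not used), p-values and q-values. The same Vehicle libraries stand in both tables on scales that differ by at most 0.0335%, and their mean was used where all 12 libraries were joined.

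Library totals are not part of the tables. Depth was estimated from the commonest fragment size implied by values up to 0.05 FPKM in transcripts of 1500 to 8000 bases (GENCODE M21), and is approximate. Values were analysed as log2(FPKM + 1), which understates the change of low genes, with limma 3.58.1 in R 4.3.3 (empirical Bayes with trend; tests were two-sided). The filter was a mean of 1 FPKM or more in the libraries fitted, and Benjamini-Hochberg adjustment ran over every gene that passed it. Each BDEV group was fitted with Vehicle in its own table, and SE-BDEV against CON-BDEV over 12 libraries. The fits were tested on simulated data. The 10 genes and the related lists were chosen with earlier results of these data known. All 10 genes are named; of each list, up to 6 genes past the threshold are named, and the 5 profiles nearest to Crmp1. Alternatives were a pseudocount of 0.1, no filter, median scaling, a replicate block, no trend, other sets of libraries and each library left out.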

Additional observations from a re-analysis of the deposited data

Results flagged for a closer look

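Dpysl5 in Vehicle is listed because 1 of its 4 libraries stood apart. Vehicle replicate 3 had 12.3 FPKM and the other 3 Vehicle libraries 11.8 to 11.9 FPKM, a gap of 0.895 of the group's whole range, above Dixon's 95% critical value for 4 samples. Of 30 sets of 4 libraries examined (10 genes in 3 groups) this was the 1 past that value, which chance alone passes in about 5% of sets.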

How the results depend on the processing

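The number of the 10 genes past the threshold in limma depended on the libraries and the fit. For CON-BDEV against Vehicle it was 4 as reported, 2 with no filter on low values, with the replicate block and with no mean-variance trend, 1 in a fit of all 12 libraries, and 1 to 7 with each library left out (7 without CON-BDEV replicate 1, 1 without Vehicle replicate 3 or 4). For SE-BDEV against Vehicle it was 0 as reported, 1 with median scaling and in a fit of all 12 libraries, and 0 to 2 with each library left out. Over all genes, the count for SE-BDEV was 104 as reported, 0 with no filter (2021 at an unadjusted p under 0.05), 48 with the replicate block, 171 in the fit of 12 libraries and 5 to 315 with each library left out (315 without SE-BDEV replicate 2, 5 to 16 without any 1 Vehicle library). For CON-BDEV it was 321 as reported, 176 with no filter, 135 with the block, 183 with no trend, 133 in the fit of 12 libraries and 134 to 556 with each library left out (556 without CON-BDEV replicate 1, 134 without Vehicle replicate 1). For SE-BDEV against CON-BDEV, 0 genes passed in limma in each of the 14 alternatives. The causes of these changes were not tested. Of the related genes called with SE-BDEVs, Dbh passed in 9 of the 14 alternatives, Plxnd1 in 8, Prph in 6 and Ddc in 4. For CON-BDEV, Plxnd1 and Ddc passed in 10, Katna1 in 8, Mical1 in 5, Nrp1 in 4, and Tubb5 and Map1a in 3. Prph, Phox2a, Dbh, Gata3 and Hand2 passed for CON-BDEV in each of the 14. Stmn2, Stmn3, Stmn4, Crmp1, Dpysl2, Dpysl3 and Tubb2b were lower than in Vehicle in each of the 14 alternatives of both comparisons. Most of these fits could not turn the direction, so the shared signs are no added evidence. Leaving out 1 library cannot turn it for Stmn2, Stmn3, Crmp1, Dpysl2 and Tubb2b, whose groups did not overlap. The replicate block, no trend and no filter leave the fold change itself as it was. Crmp1 passed for CON-BDEV in each of the 14.

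Replicate numbers gave no pairing with Vehicle. The correlation of deviations of same-numbered libraries ran from −0.10 to 0.04 for SE-BDEV and −0.06 to 0.02 for CON-BDEV. Of 4 SE-BDEV libraries, 0 correlated best with the Vehicle library of their own number, likewise 0 of 4 CON-BDEV libraries. Between SE-BDEV and CON-BDEV, pairing stayed unsettled. SE-BDEV replicates 1 and 2 correlated best with the CON-BDEV library of their own number (0.20 and 0.30). Replicates 3 and 4 did not (−0.07 and −0.12). Library totals are unknown, so no counting interval is given, and 4 libraries a group limit the precision.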
